A study of Mus musculus with 4 samples.

Results

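Fully grown mouse oocytes carry a large store of mRNA that was transcribed during growth and is kept untranslated until meiosis resumes. RNA-binding proteins hold this store: some bind 3′ ends or poly(A) tails, some block the cap-binding factor eIF4E, and others pack the mRNA into repressed particles. When an oocyte matures, many stored mRNAs gain a longer poly(A) tail and are translated. The genes described here encode 10 of these proteins, namely Zar1, Zar1l, Ybx2, Ddx6, Lsm14b, Eif4enif1, Eif4e1b, Cpeb1, Patl2 and Pabpc1l. They were taken by gene symbol, and all 10 are among the 16861 genes listed in each RNA-seq library.

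The libraries were made from germinal vesicle (GV) oocytes of female C57BL/6J mice, obtained at 3 weeks of age, and the labels name no genetic change or treatment in either group. Oocytes were freed of cumulus cells, stained with Hoechst and sorted by eye into NSN oocytes, whose chromatin does not surround the nucleolus, and SN oocytes, whose chromatin forms a ring around it, and those that could not be classified were left out. Each group has 2 libraries of 15 pooled oocytes, made with Smart-seq2 after removal of the zona pellucida, in which cDNA is primed at the poly(A) tail and amplified by PCR. Nothing in the sources used here says how many animals stood behind a library, so p-values measure only the spread between these libraries, which may be technical.

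The authors deposited FPKM, that is read pairs divided by the gene's length and by the total of the library. Totals of 17069772 to 17998361 read pairs per library were recovered from the values, and at this depth 3 read pairs over 1 kb give 0.167 to 0.176 FPKM. All 10 oocyte markers examined were listed, from 15.98 to 7281 FPKM. Of 14 granulosa and cumulus markers, 9 were listed, and their FPKM summed to 9.6 and 13.7 in NSN replicates 1 and 2 and to 14 and 13.8 in the SN replicates. Foxl2, Amh, Amhr2, Fst and Npr2 were not analysed here. FPKM give the share of a transcript within a library, so a smaller amount per oocyte and a larger amount of other RNA cannot be told apart. A longer or shorter poly(A) tail, which could alter the priming of cDNA, and a different number of molecules cannot be told apart either.

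Because the libraries start from the poly(A) tail, the 3′ ends of the genes were read first. In the last 100 bases of the canonical transcript (GENCODE annotation of GRCm39), 9 of the 10 genes hold a polyadenylation signal, searched as AATAAA or ATTAAA on the transcript strand, against 78.8% of the 9592 tested genes with a protein-coding canonical transcript of this length. A cytoplasmic polyadenylation element (CPE), the site to which CPEB1 binds, was searched as TTTTAT or TTTTAAT in the same 100 bases. It occurred in 1 of the 10 genes, Ybx2, against 17.9% of those tested genes. Ybx2 held no polyadenylation signal in this window, so 0% of the 10 genes held both, against 14.9% of those tested genes. Of 12 dormant maternal mRNAs known to be recruited during maturation, a list drawn up partly for such regulation, 66.7% held a CPE and 50% held both. The search found no CPE in Mos, Ccnb1, Tpx2 and Cnot6l of that list. The letters say only what is present in this window and do not show which 3′ end was used.

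The following lines of 30 bases show the 3′ ends of the genes whose levels are described first, with the signal or, for Ybx2 and Orc6, the CPE (Orc6 also the signal) in capitals. Orc6, a subunit of the origin recognition complex, is given as a dormant mRNA for contrast. Its CPE lies after the signal, towards the end of the transcript, and whether it acts was not tested.
Eif4enif1: ttcttttggtttATTAAAagttacatatgc
Pabpc1l: tttgctttatatATTAAAaaatgctgcaaa
Patl2: ggccttgtatttAATAAAagtctaatctgg
Lsm14b: aaatgcaaactaAATAAAcattggactctt
Eif4e1b: tttctgtatctaAATAAAcacttctggaac
Ybx2: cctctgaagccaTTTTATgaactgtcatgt
Orc6: tcaagcccAATAAAtgttatTTTTATatgc

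The levels of the 10 genes spanned more than 100-fold. FPKM compare genes per length, by a length rule that the sources used here do not give, and the order depends on it. The length implied by the FPKM of Zar1 was 1429 bases, against 2494 in its longest annotated transcript. For Pabpc1l both were 2354. On this scale Zar1 was the highest with a mean of 386 over the 4 libraries, rank 166 of the 16861 listed genes. It was followed by Zar1l (273, rank 250), Cpeb1 (249, rank 280), Eif4enif1 (127, rank 539) and Pabpc1l (81.0, rank 808). Patl2 (35.3) and Ybx2 (23.5) lay in the middle, and Lsm14b (5.82), Eif4e1b (2.86) and Ddx6 (2.49, rank 7352) at the bottom of the order. Neighbours in this order were separated in every library, with no overlap of their ranges, for Zar1 and Zar1l, Cpeb1 and Eif4enif1, Eif4enif1 and Pabpc1l, Pabpc1l and Patl2, and Ybx2 and Lsm14b. Lsm14b lay above Eif4e1b in all 4 libraries, with a ratio of mean FPKM of 2.03, although their ranges over the libraries overlapped. The order of Zar1l and Cpeb1, of Patl2 and Ybx2, and of Eif4e1b and Ddx6 held in 3 of the 4 libraries and was not separated beyond their spread. Together the 10 genes took 0.278% and 0.248% of all read pairs in NSN oocytes and 0.221% and 0.233% in the SN libraries. Zar1, Zar1l and Cpeb1 accounted for 61.1% to 68.7% of these.

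**Figure D1:**
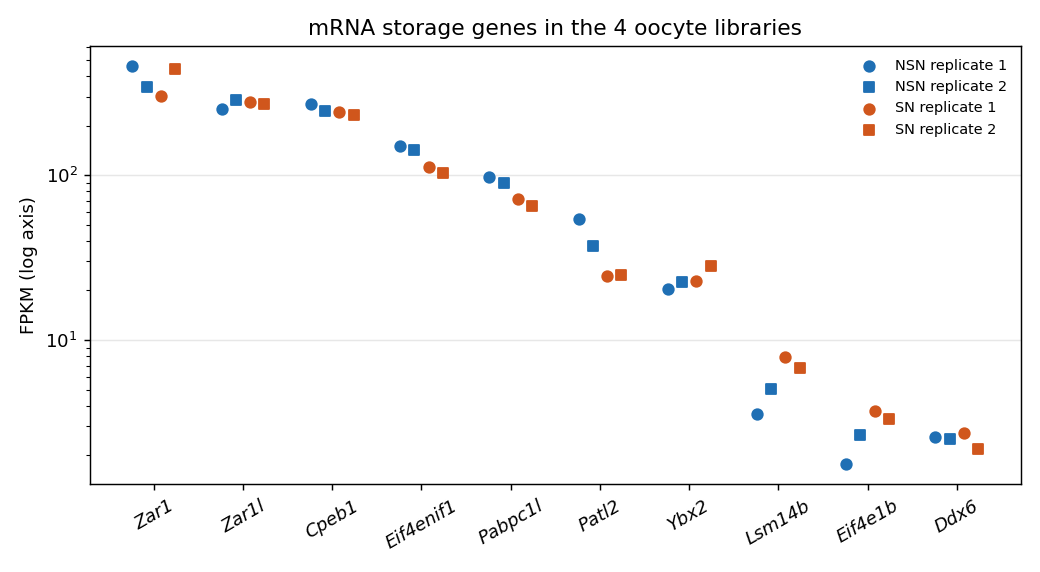
FPKM of the 10 mRNA storage genes on a log axis, ordered by mean level, with a point for each library (blue, NSN; orange, SN; circles, replicate 1; squares, replicate 2). Eif4enif1, Pabpc1l, Patl2 and, by less, Cpeb1 lie lower in both SN libraries than in both NSN libraries. Lsm14b, Eif4e1b and, by less, Ybx2 lie higher, and the points of Zar1, Zar1l and Ddx6 are mixed.

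To ask whether the storage genes differ between the chromatin configurations, log2(FPKM + 0.5) of the 2 SN libraries was compared with that of the 2 NSN libraries by limma. The 11672 genes whose FPKM averaged 0.5 or more over the libraries were tested, and these include all 10. Eif4enif1, Pabpc1l and Patl2 fell from NSN to SN oocytes, and none of the 10 was called higher, although Lsm14b and Eif4e1b had higher values in both SN libraries and were called in some other settings. A gene was called at a Benjamini-Hochberg adjusted p under 0.05 over all genes tested and a fold change of at least 1.2, and 1.98% of the genes tested were called lower in SN against 5.95% called higher, or 7.93% in either direction. The median log2 fold change of the 10 genes was -0.08, beside 0.138 for all genes tested. Under median scaling, which divides each library by the median of its genes' ratios to their means, the median of all genes was 0.005 and that of the 10 genes was -0.23. Of the 10, Eif4enif1 and Pabpc1l were then called, and 1.53% of all genes tested were called lower and 0.668% higher, together 2.2%. For 1 gene in 2 against 2 libraries the smallest two-sided p of an exact permutation test is 0.333, so the p-values given here rest on the variance that limma pools across genes.

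Counted without a test, 3 of the 10 genes were higher in both SN libraries than in both NSN libraries and 4 were lower, against 44.8% and 17.8% of all genes tested. After median scaling the counts were 2 higher and 6 lower, against 29.4% and 30.1%. The calls were also made on the recovered read pairs with voom, limma's model of counts, where 2 storage genes were called higher and 3 lower, beside 15.2% and 4.64% of the genes tested. With voom and median scaling 1 was called higher and 3 lower, beside 6.46% and 8.3%. Among genes with an average of 5 FPKM or more, which leaves 8 storage genes, 1 was called higher and 3 lower, beside 21.2% and 5.92%. Patl2, Eif4enif1 and Pabpc1l were the genes called lower in these 3 settings.

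Patl2 changed the most. It encodes the oocyte form of the PAT1 family, which binds mRNA and represses translation, and it lies on chromosome 2 of GRCm39 from 121950589 to 122016689 (ENSMUSG00000027233, minus strand). It had 54.7 and 37.2 FPKM in NSN replicates 1 and 2, against 24.4 and 24.8 in the SN replicates, from 1012 to 2317 read pairs. The NSN libraries differed from each other more than the SN libraries did, but both lay above both SN libraries. Patl2 was 1.82-fold lower in SN oocytes, a log2 fold change of -0.86 (standard error 0.17, 95% interval -1.28 to -0.45, limma adjusted p = 0.0428). The adjusted p was 0.0556 after median scaling, at a log2 fold change of -1.02. Without NSN replicate 1, the library with the highest value, the log2 fold change was -0.59, and without NSN replicate 2 it was -1.14. It was -0.85 without SN replicate 1 and -0.88 without SN replicate 2. Such fits set 1 library against 2, and the call was not kept in all of them.

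Eif4enif1 and Pabpc1l fell by a similar extent. Eif4enif1 encodes 4E-T, which binds eIF4E and keeps it from the translation machinery, and it lies on chromosome 11 from 3152235 to 3194588 (ENSMUSG00000020454, plus strand). It had 151 and 143 FPKM in NSN oocytes and 112 and 103 in SN oocytes, from 7636 to 10826 read pairs. The groups were well apart, and the replicates of each differed by far less than the groups. The log2 fold change was -0.45 (standard error 0.08, 95% interval -0.64 to -0.25, limma adjusted p = 0.0386), a 1.37-fold lower level in SN oocytes. Pabpc1l encodes the poly(A)-binding protein of oocytes and early embryos, and lies on chromosome 2 from 163867370 to 163892458 (ENSMUSG00000054582, plus strand). It had 97.3 and 89.8 FPKM in NSN oocytes and 71.6 and 65.0 in the SN libraries, from 2755 to 3987 read pairs. Here too the lowest NSN value lay above the highest SN value, with a log2 fold change of -0.45 (standard error 0.09, 95% interval -0.66 to -0.24, limma adjusted p = 0.0424).

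The calls of both genes remained after median scaling, with a log2 value of -0.60 for each (limma adjusted p = 0.0471 and 0.0476). They were not kept in all fits with 1 library left out, which set 1 library against 2 and whose calls are not counted here. The log2 fold change stayed between -0.51 and -0.39 for Eif4enif1 and between -0.52 and -0.38 for Pabpc1l whichever library was left out. The oocyte markers moved with these genes: 6 of 10 (Bmp15, Gdf9, Nobox, Zp1, Zp2 and Zp3) were called lower in SN and none higher, and their summed FPKM were 21619 and 20519 in NSN oocytes and 14868 and 14201 in SN oocytes. Of all genes tested, 1.98% were called lower. The number of markers called changed with the library left out, and voom called Kit higher. The part of these in the fall of Patl2, Eif4enif1 and Pabpc1l was not tested.

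**Figure D2:**
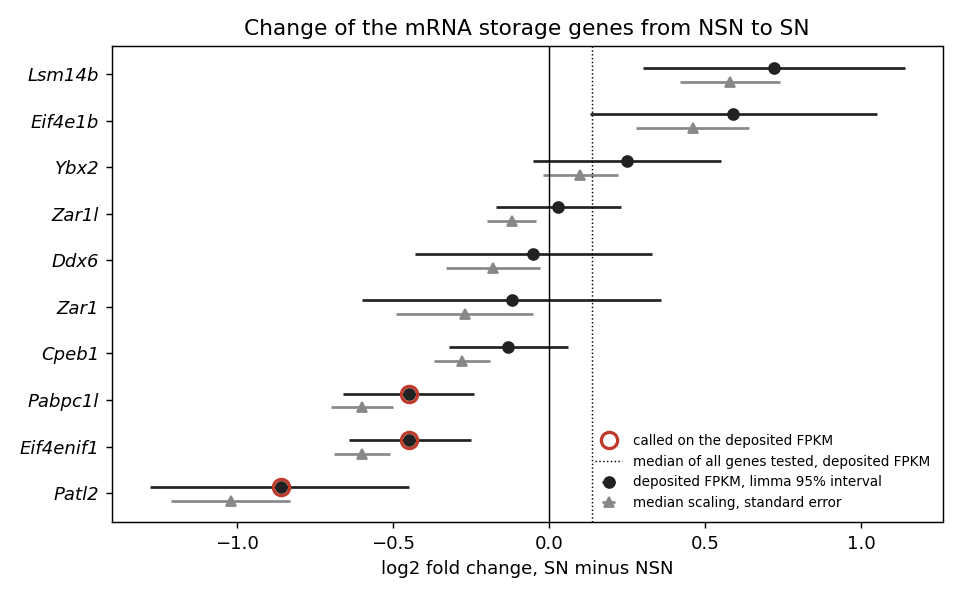
Log2 fold change of each mRNA storage gene, SN minus NSN, on the deposited FPKM (black circles with the 95% interval from limma) and after median scaling (grey triangles with the standard error). Red rings mark Patl2, Eif4enif1 and Pabpc1l, which were called on the deposited FPKM, and the dotted line is the median of all genes tested, 0.138.

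Lsm14b and Eif4e1b had higher values in SN oocytes, although neither passed the threshold over all genes. Lsm14b encodes an Sm-like protein of repressed mRNA particles, and lies on chromosome 2 from 179666232 to 179677259 (ENSMUSG00000039108, plus strand). It had 3.58 and 5.04 FPKM in the NSN libraries, on 180 and 261 read pairs, and 7.88 and 6.80 in the SN libraries, on 389 and 354. Both SN values lay above both NSN values, as they did for 44.8% of the genes tested. The log2 fold change was 0.72 (standard error 0.18, 95% interval 0.30 to 1.14, limma adjusted p = 0.0563). It was called with voom on the read pairs (log2 fold change 0.78, limma adjusted p = 0.00684) and at the stricter level filter (limma adjusted p = 0.0206). Without NSN replicate 2 the log2 fold change was 0.94. It was 0.50 without NSN replicate 1, 0.62 without SN replicate 1 and 0.82 without SN replicate 2. These fits set 1 library against 2, and their calls are not counted. The 8.4% of its exon bases shared with a lncRNA gene on the opposite strand could not be told apart by the unstranded counting. Across the settings that kept all 4 libraries its adjusted p ranged from 0.00684 to 0.0999.

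Eif4e1b, the oocyte form of the cap-binding protein eIF4E, lies on chromosome 13 from 54931811 to 54936272 (ENSMUSG00000074895, plus strand). It was near the bottom of the order, with 1.76 and 2.65 FPKM in NSN oocytes and 3.73 and 3.31 in the SN libraries. These values rest on 66, 102, 137 and 128 read pairs, the smallest numbers of any of the 10 genes. Its log2 fold change of 0.59 (standard error 0.19, 95% interval 0.13 to 1.05) had a limma adjusted p of 0.0974. It was called with voom on the read pairs (log2 fold change 0.69, limma adjusted p = 0.0473). With 1 library left out, the log2 fold change was 0.83 without NSN replicate 2 and 0.35 without NSN replicate 1. It was 0.51 without SN replicate 1 and 0.67 without SN replicate 2. The calls of these fits of 1 library against 2 are not counted. Since the scale of log2(FPKM + 0.5) understates the change of genes at such levels, the fold of 1.5 is on that scale only.

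Cpeb1 and Ybx2 showed smaller differences that did not pass the test. Cpeb1 encodes the protein that binds the CPE, represses the mRNA in the GV oocyte and later promotes its polyadenylation, and it lies on chromosome 7 from 80996774 to 81105213 (ENSMUSG00000025586, minus strand). It had 272 and 247 FPKM in NSN oocytes and 242 and 233 in SN oocytes, from 12860 to 14765 read pairs. The groups did not overlap, as for 17.8% of the genes tested in this direction, but the log2 fold change was only -0.13 (standard error 0.08, 95% interval -0.32 to 0.06, limma adjusted p = 0.315). Median scaling gave -0.28 on the log2 scale, with a standard error of 0.09 (limma adjusted p = 0.126), and voom with median scaling also gave -0.28 (limma adjusted p = 0.0537), so the size of the difference depended on the scaling.

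Ybx2 encodes MSY2, an abundant Y-box protein of germ cells that binds and stabilises mRNA. It lies on chromosome 11 from 69826474 to 69832432 (ENSMUSG00000018554, plus strand), and 43.8% of its annotated exon bases also lie in exons of Eif5a, Slc2a4 and a lncRNA gene on the opposite strand. The authors counted read pairs without regard to strand, so pairs there could not be told apart by gene and the level of Ybx2 is uncertain. It had 20.4 and 22.4 FPKM in NSN oocytes and 23.0 and 28.3 in the SN libraries. SN replicate 2 stood above the others, SN replicate 1 was close to NSN replicate 2, and the groups overlapped after median scaling. The log2 fold change was 0.25 (standard error 0.12, 95% interval -0.05 to 0.55, limma adjusted p = 0.219).

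Zar1, Zar1l and Ddx6 had mixed values. Zar1 encodes a zinc finger protein that binds maternal mRNA and is needed for the zygote to develop beyond its first divisions, and it lies on chromosome 5 from 72734149 to 72738597 (ENSMUSG00000063935, minus strand). It had 461 and 341 FPKM in NSN oocytes and 303 and 440 in SN oocytes, on 7388 to 11477 read pairs. Its replicates differed by more than the groups, in opposite order, so that the standard error of its log2 fold change of -0.12 was 0.20, the largest of the 10 (95% interval -0.60 to 0.36, limma adjusted p = 0.714). The fold change turned positive without NSN replicate 1 (0.097) and without SN replicate 1 (0.15).

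Zar1l, its close relative, lies on the same chromosome from 150430520 to 150441629 (ENSMUSG00000056586, minus strand). Its values were even, with 253 and 287 FPKM in NSN oocytes and 279 and 272 in SN oocytes. The log2 fold change was 0.03 (standard error 0.08, 95% interval -0.17 to 0.23, limma adjusted p = 0.827), and it became -0.12 after median scaling. Ddx6, a DEAD-box helicase at the centre of repressed mRNA particles, lies on chromosome 9 from 44514963 to 44552028 (ENSMUSG00000032097, plus strand). It had 2.57 and 2.50 FPKM in NSN oocytes and 2.72 and 2.17 in the SN libraries, on 237 to 282 read pairs. A lncRNA gene on the opposite strand shares 9.8% of its exon bases, which the unstranded counting could not tell apart. The SN values lay on either side of both NSN values, and the log2 fold change was -0.05 (standard error 0.16, 95% interval -0.43 to 0.33, limma adjusted p = 0.857).

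**Figure D3:**
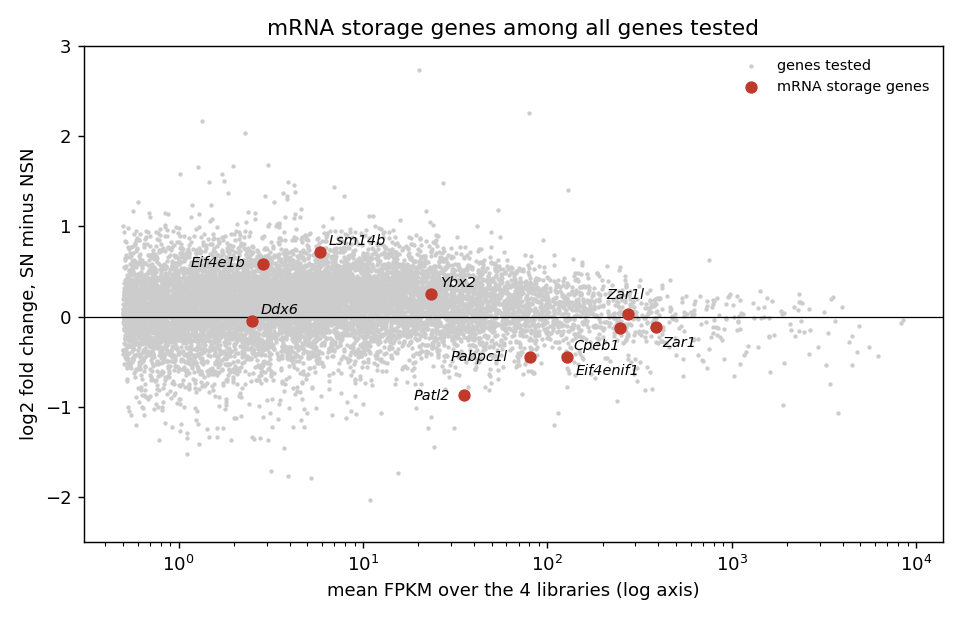
Mean FPKM over the 4 libraries on a log axis against the log2 fold change, SN minus NSN, for all 11672 genes tested (grey) and the 10 mRNA storage genes (red, named). Lsm14b and Eif4e1b, the storage genes with the highest log2 fold changes, have mean FPKM of 5.82 and 2.86, and Patl2, Pabpc1l and Eif4enif1 lie between 35.3 and 127.

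Ratios of genes within a library do not depend on how libraries are scaled, so 7 pairs of a storage gene with a related gene were also compared. The size of a ratio depends on the lengths used for both genes, which are the same in every library. Patl2 was above Patl1, the PAT1 gene used in many cell types, by 27.5 and 16 times in NSN oocytes and 8.31 and 9.74 times in the SN libraries. The ratio was 2.33-fold lower in SN oocytes, with the groups apart, at the smallest two-sided exact permutation p that 2 libraries against 2 allow (0.333). Cpeb1 exceeded Cpeb4, the most abundant of the other CPEB genes, by 111 and 78.1 times in NSN oocytes and 42.0 and 45.3 times in the SN libraries. This ratio was 2.13-fold lower in SN oocytes, again with the groups apart (exact permutation p = 0.333), while Cpeb4 itself rose from 2.46 and 3.16 FPKM to 5.76 and 5.16.

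Ybx2 was below Ybx1, a broadly used Y-box gene, in all 4 libraries, with ratios of 0.689 and 0.584 in NSN and 0.350 and 0.442 in SN oocytes. Eif4e1b had a ratio to Eif4e of 0.0126 and 0.0200 in NSN oocytes and 0.0262 and 0.0214 in the SN libraries, so Eif4e was the more abundant cap-binding mRNA throughout. Lsm14b had a ratio to Lsm14a of 0.121 and 0.144 in NSN and 0.150 and 0.146 in SN oocytes. In these 3 pairs the groups were apart (exact permutation p = 0.333 for each). The NSN replicates of Lsm14b and Lsm14a, however, differed from each other more than NSN replicate 2 did from the SN libraries. Any pair with its groups apart takes this p, and how often other pairs of genes are apart was not examined. Of single genes tested, 44.8% were apart and higher in SN and 17.8% were apart and lower. Pabpc1l exceeded Pabpc1, the poly(A)-binding protein of most somatic cells, by 82.0 to 99.4 times. Zar1 exceeded Zar1l by 1.09 to 1.82 times. The groups overlapped in both pairs (exact permutation p = 0.667 for each). Pabpc1 had only 0.749 to 1.07 FPKM, on 38 to 54 read pairs, which limits the precision of its ratio.

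**Figure D4:**
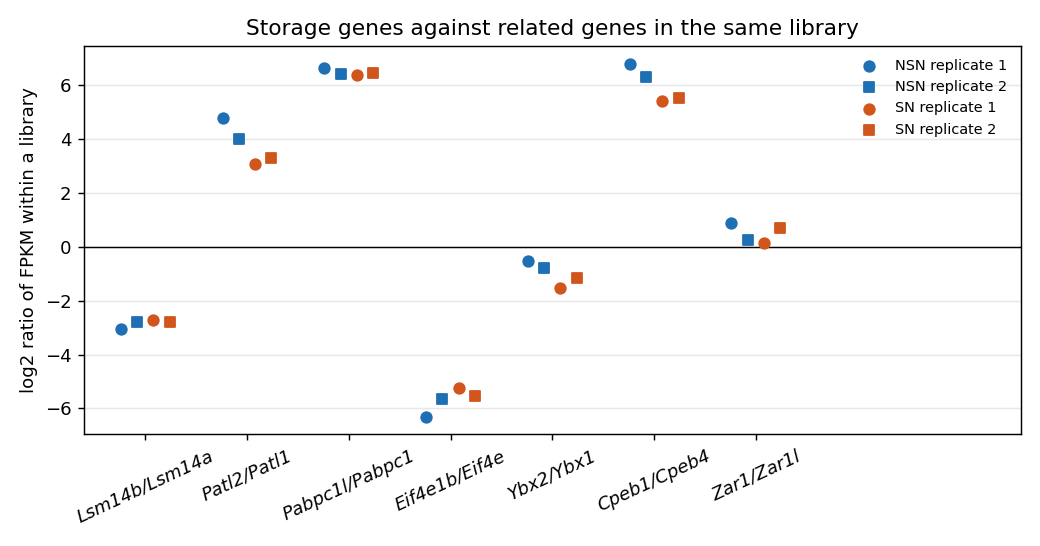
Log2 ratio of the FPKM of 7 storage genes to a related gene in the same library (blue, NSN; orange, SN; circles, replicate 1; squares, replicate 2). The ratios of Patl2 to Patl1, Ybx2 to Ybx1 and Cpeb1 to Cpeb4 are lower in both SN libraries. Those of Lsm14b to Lsm14a and Eif4e1b to Eif4e are higher. Pabpc1l lies above Pabpc1 by 82.0 to 99.4 times in all 4 libraries.

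The related genes of mRNA storage and turnover were taken as 6 lists and described by counts. Of their 72 tested genes, 16 were called on the deposited FPKM, 12 higher and 4 lower in SN oocytes. Of all genes tested, 5.95% were called higher and 1.98% lower, together 7.93%, and the median log2 fold change was 0.138. After median scaling 6 of the 72 were called, beside 2.2% of all genes tested. The number called also changed with the library left out. Of 16 decapping and P-body genes, which remove the cap and hold mRNA in cytoplasmic bodies, 14 were tested, 5 were called higher and 1 lower in SN oocytes, with a median log2 fold change of 0.35. Dcp2, the decapping enzyme, rose from 3.18 and 3.73 to 6.34 and 5.62 FPKM (log2 fold change 0.71, standard error 0.14, limma adjusted p = 0.0424), and its cofactor gene Dcp1a from 68.9 and 78.5 to 98.8 and 96.1 (limma adjusted p = 0.0479). Lsm14a, the relative of Lsm14b, rose from 29.5 and 35.0 to 52.7 and 46.5 FPKM (log2 fold change 0.62, standard error 0.12, limma adjusted p = 0.0396). The LSM1 to LSM7 proteins form a ring that binds the 3′ end of deadenylated mRNA, and their genes were called in both directions. Lsm3 rose from 56.6 and 59.7 to 97.3 and 90.6 FPKM and Lsm5 from 91.7 and 95.8 to 127 and 119, whereas Lsm1 fell from 10.9 and 8.93 to 5.90 and 4.76 (limma adjusted p = 0.0364, 0.0431 and 0.0387). After median scaling Lsm3 and Lsm1 were called (0.0471 and 0.0476), and Dcp1a, Dcp2, Lsm14a and Lsm5 were not (0.115, 0.0631, 0.0631 and 0.115).

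Of 12 cytoplasmic polyadenylation genes, 10 were tested and 1 was called, Cpeb4 (log2 fold change 0.85, standard error 0.16, limma adjusted p = 0.0387, and 0.0576 after median scaling). The median of this list was 0.22, and its most abundant gene, Fip1l1, changed little, from 89.9 and 88.4 to 94.0 and 88.3 FPKM (limma adjusted p = 0.809). None of the 9 tested genes among 11 eIF4E genes and cap-binding partners was called by limma. Of these 9, 1 had an unadjusted limma p under 0.05, against 3695 of all 11672 genes tested. Eif4e was at 132 to 155 FPKM in the 4 libraries (limma adjusted p = 0.322). With voom on the read pairs 1 of the 9 was called, Gigyf2, a partner of the cap-binding protein 4EHP, which was named after its value was seen.

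Of 11 poly(A)-binding proteins and partners, 8 were tested, with 1 called in each direction. Pabpc4, a close relative of Pabpc1, fell with Pabpc1l, from 84.5 and 82.4 to 65.0 and 66.3 FPKM (log2 fold change -0.34, standard error 0.08, limma adjusted p = 0.047, and 0.0476 after median scaling). Larp4, whose product binds poly(A) and stabilises mRNA, rose from 15.3 and 19.3 to 33.0 and 32.5 FPKM (log2 fold change 0.91, standard error 0.12, limma adjusted p = 0.0364, and 0.0461 after median scaling). The most abundant of the list was Paip2, which binds and inhibits poly(A)-binding protein, at 430 to 467 FPKM (limma adjusted p = 0.578).

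Among 24 other mRNA-binding regulators, 19 were tested, 3 were called higher and none lower. Both Y-box relatives of Ybx2 rose: Ybx1 from 29.6 and 38.3 to 65.6 and 64.0 FPKM (log2 fold change 0.93, standard error 0.13, limma adjusted p = 0.0364, and 0.0466 after median scaling), and Ybx3 from 51.9 and 60.4 to 80.0 and 77.4 (limma adjusted p = 0.0428, and 0.0759 after median scaling). Fxr1 rose from 73.5 and 77.7 to 97.8 and 105 (limma adjusted p = 0.0421, and 0.0994 after median scaling). The most abundant gene of the list, Dazl, a germ cell activator of translation, was at 305 and 332 FPKM in NSN and 271 and 294 in SN oocytes (limma adjusted p = 0.193).

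The dormant maternal mRNAs, all 12 of which were tested, moved in both directions, with 2 called higher and 2 lower and a median of 0.15. Mos, which encodes the kinase that keeps the mature egg arrested, fell from 274 and 239 to 170 and 196 FPKM, and Plat, encoding tissue plasminogen activator, from 1284 and 1388 to 1065 and 932 (log2 fold changes -0.49 and -0.42, limma adjusted p = 0.0452 and 0.0449). Orc6 rose from 113 and 133 to 182 and 192 FPKM, and Cnot6l, a deadenylase gene, from 15.8 and 19.4 to 31.5 and 27.2 (log2 fold changes 0.61 and 0.72, limma adjusted p = 0.0364 and 0.0386). After median scaling Plat was called (limma adjusted p = 0.0471) and Mos, Orc6 and Cnot6l were not (0.0556, 0.0574 and 0.0592). Spin1, the most abundant of the list, was at 3779 to 4252 FPKM (limma adjusted p = 0.315).

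**Figure D5:**
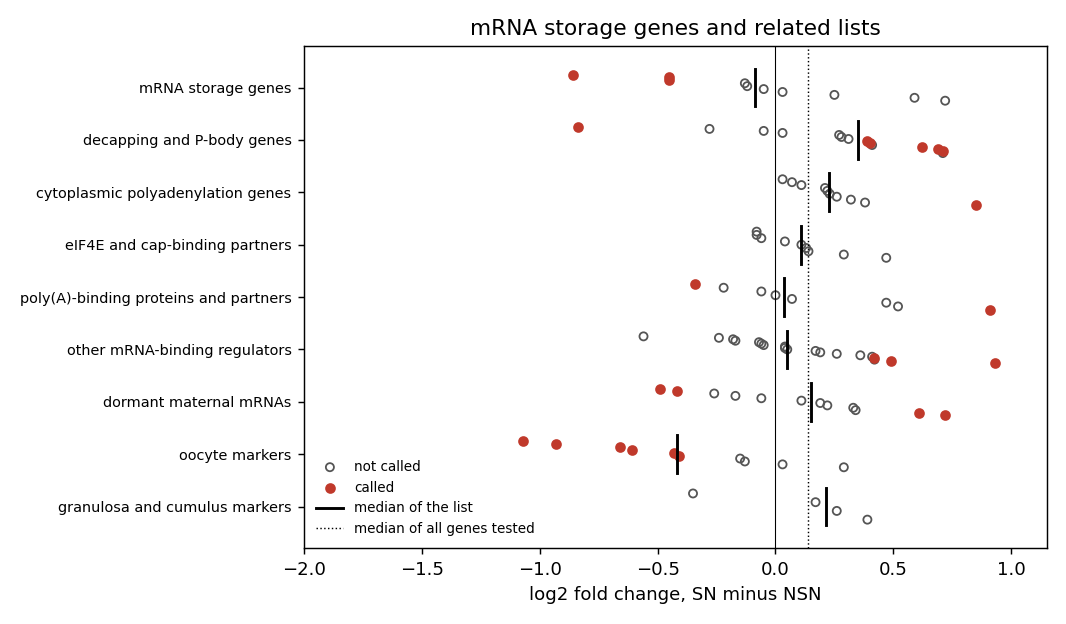
Log2 fold change, SN minus NSN, of the tested genes in the mRNA storage list, 6 related lists and 2 lists of cell type markers (filled red, called; open, not called; thick bar, median of the list; dotted line, median of all genes tested). The storage genes have a median of -0.08, the decapping and P-body genes 0.35 and the oocyte markers -0.42.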

How the data were processed

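RNA-seq of 4 GV oocyte libraries (2 NSN, 2 SN, grouped by their labels) was analysed. Per the paper's methods and the labels, the authors trimmed reads with Trim Galore 0.6.10, aligned them by HISAT2 (GRCm39), assigned primary read pairs to exons by featureCounts without using strand, and turned these into the deposited FPKM with their own code. The members and the gene lists were chosen with earlier results of these data known, and the pairs of related genes and the search of 3′ ends after the members' values had been seen. Library totals and whole read pairs were recovered from 5 mitochondrial tRNA genes of known length, for 99.83% of the listed genes (tolerance 1e-06). Log2(FPKM + 0.5) was tested with limma 3.58.1 in R 4.3.3 (eBayes with a variance trend, two-sided) where FPKM averaged 0.5 or more. Median scaling divided each library by the median ratio of its tested genes to their mean. The procedure was also tried on 5 sets of made-up counts, with 200 of 11665 genes changed (dispersion 0.01). At the median it found 73.5% of the changed genes, and 10.1% of its calls were wrong. That is a larger share of wrong calls than the adjusted p threshold of 0.05 aims for. The made-up counts had the same dispersion for all genes and as many genes raised as lowered. Both shares therefore need not hold for the real libraries. Coordinates, exon overlaps and 3′ ends came from a later GENCODE release on GRCm39, and none of these annotations enters the test. Named were all members, the called genes of each related list (at most 6), its most abundant gene and relatives of members. Pseudocounts of 0.1 and 1, no filter, an average of 5 FPKM or more, median scaling, no variance trend, the replicate block, voom and each library left out were tried. Tables were computed with Python 3.11.15.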

Additional observations from a re-analysis of the deposited data

How the results depend on the processing

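With 2 libraries per group, the calls depended on the settings, and the cause of each move was not tested. The number of the 10 storage genes called was 3 on the deposited FPKM with either other pseudocount, 4 at a mean FPKM of at least 5 (where Ddx6 and Eif4e1b were not tested), 2 with median scaling, 4 with voom and median scaling, 5 with voom at total scaling, and 0 without the filter and without the variance trend, where limma called no gene at all (4092 and 3449 genes at an unadjusted p under 0.05). Which storage genes were called also changed with the library left out. Such fits set 1 library against 2 and assume that the lone library varies like the other group, so their calls are not counted here. Their log2 fold changes ranged from -1.14 to -0.59 for Patl2, from -0.51 to -0.39 for Eif4enif1 and from -0.52 to -0.38 for Pabpc1l. For Lsm14b the range was 0.50 to 0.94, and for Eif4e1b 0.35 to 0.83. Of the related genes, 16 were called, against 6 with median scaling, 26 with voom at total scaling and 20 with voom and median scaling. The count was 0 without the filter and without the variance trend, and it changed with the library left out. Among all genes, 926 of 11672 were called, and 257 with median scaling. Voom called 2313 of 11656 at total scaling and 1720 with median scaling. In these settings the number of related genes called rose and fell with the number called among all genes. With the replicate number as a block, 2 storage genes and 7 related genes were called, of 422 among all 11672 tested (266 higher and 156 lower), and Pabpc1l had a limma adjusted p of 0.0516. The correlation across genes of the replicate differences in NSN and in SN was -0.07. No label says whether libraries of the same number share a litter, batch or day, so a pairing is not known. Signs that changed were those of Zar1l (-0.12 after median scaling and with voom and median scaling, -0.058 to 0.12 with single libraries left out, the lowest without NSN replicate 1), Zar1 (-0.39 without SN replicate 2, 0.097 without NSN replicate 1, 0.15 without SN replicate 1), Ddx6 (-0.18 without SN replicate 1, 0.087 without SN replicate 2), Eif4e (-0.028), Fip1l1 (-0.12, and -0.013 to 0.076 with single libraries left out, the lowest without SN replicate 1) and Spin1 (-0.045), the last 3 after median scaling and with voom and median scaling, and none of these passed the threshold. For the storage genes under settings with all 4 libraries, 74 values gave the same direction and call, 8 lost the call, 4 gained it and 2 had the other sign. Read pairs limit the precision most for Eif4e1b, and amplified read pairs are not independent molecules.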
